A study of Mus musculus with 24 samples.

Results

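The transcriptional response to ifebemtinib (IN10018), an inhibitor of focal adhesion kinase (FAK), was set against the responses to defactinib, VS-4718 and GSK2256098, all of which inhibit the same kinase. The comparison used 12 of the 24 RNA-seq libraries of the series, 3 of ifebemtinib and 9 of the other drugs (3 each), chosen by the compound named in the labels. All were cultures of MS03, an Nf2-/- murine Schwann cell line obtained by infecting 1 immortalized Nf2 flox/flox line with Cre, so every group, vehicle included, shared the loss of Nf2 and its line of origin. Each compound was given in DMSO at 1 µM for 24 h, and 3 DMSO cultures served as the vehicle background. The remaining 9 libraries, treated with 3 FAK-degrading PROTACs, entered no contrast but shared in the filter, the scaling and the estimate of the spread. With only the 12 libraries 15180 genes were tested rather than 16070, of which 2699 were higher and 3008 lower. Dose and time were therefore matched, whereas the degree of FAK inhibition reached in each culture was not analysed here. The second side of the main contrast was the mean of the 3 other drugs with equal weight, and ifebemtinib was also compared with each drug in turn (3 pairs). Because 1 drug was set against 3, no test took drugs as the unit, and p-values measure the spread between the 3 labelled biological replicates of each treatment.

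FAK, encoded by Ptk2, is a cytoplasmic tyrosine kinase that is recruited to integrin adhesions and relays signals from the extracellular matrix to the cytoskeleton and to growth pathways. Genes induced by low oxygen are controlled by hypoxia-inducible factors, which the oxygen-dependent prolyl hydroxylases Egln1 and Egln3 mark for degradation, and they include most enzymes of glycolysis. ATF4 is the transcription factor of the integrated stress response, and its targets make, import and sense amino acids. Schwann cells ensheathe and myelinate peripheral axons under the control of Sox10, and lay down a basal lamina of laminins and collagens.

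The ifebemtinib libraries held 21654444 to 22899052 counts and the 9 others 22539806 to 26550878. Within a treatment, the chi-square of 2 libraries' counts per degree of freedom was 1.96 to 9.45, so that no pair differed by as little as sampling noise. GSK2256098 replicate 1 (6.91 and 9.45 from its partners, which were 1.97 apart) and ifebemtinib replicate 2 (6.18 and 6.90, against 1.96) stood furthest from their groups. Of the Schwann cell markers, Sox10 reached 19.7 to 50.1 CPM and Ngfr, Erbb3 and Cdh19 were detected in the libraries of these 5 groups, whereas S100b stayed under 0.5 CPM. Markers of other cell types were mixed. Ptprc, Lum, Emcn and Elavl4 were at 0 counts and Adgre1, Itgam and Dcn at no more than 1 in any library, but the fibroblast genes Col1a1 (370.2 to 502.4 CPM) and Pdgfra (11.7 to 14.7), the macrophage gene Cd68 (2.94 to 5.30) and the neuronal gene Tubb3 (2.32 to 4.71) were detected. The summed fibroblast list was 383.8 to 419.0 CPM with ifebemtinib, 395.6 to 414.6 with DMSO and 427.9 to 515.3 with the other drugs, and its part in the results was not tested. Transcripts of mitochondrially encoded genes took 2.62 to 2.80% of counts under ifebemtinib, below DMSO (3.03 to 3.06%), VS-4718 (3.01 to 3.14%), GSK2256098 (3.22 to 3.35%) and defactinib (3.42 to 3.89%). The share was lower with ifebemtinib than in every library of DMSO and of the other drugs, while VS-4718 overlapped DMSO, and its part in the results was not tested. Levels are CPM, the counts of a gene relative to the TMM-scaled library total, and in such bulk samples fewer cells of a type and less RNA per cell cannot be told apart.

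Stress and hypoxia genes such as Ddit4, Chac1, Trib3, Ndrg1 and Bnip3 were above DMSO with ifebemtinib and below it with each of the other drugs, while Ngfr and Notch1 stayed near the DMSO level with ifebemtinib and were raised by each of the others. Of 16070 genes tested, 2969 (18.5%) were higher and 2876 (17.9%) lower with ifebemtinib than with the mean of the other 3 (adjusted p under 0.05, edgeR quasi-likelihood test). Most of these differences were small, with a median absolute log2 fold change of 0.21 among the called genes, and 99 higher and 50 lower genes differed at least 2-fold. The count of 5845 genes fell to 4788, 5097 or 4850 without ifebemtinib replicate 1, 2 or 3, and to 5746 without GSK2256098 replicate 1. In 10719 genes (66.7%) the 95% confidence interval of the difference lay within 0.5 log2 units of 0.

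Pair by pair, ifebemtinib was closest to GSK2256098. Against defactinib 2841 genes (17.7%) were higher and 2637 (16.4%) lower, against VS-4718 3018 (18.8%) and 3277 (20.4%), and against GSK2256098 1757 (10.9%) and 1954 (12.2%), with p-values adjusted over all genes and the 3 pairs together. In the same direction in all 3 pairs were 995 higher (6.19%) and 1203 lower genes (7.49%). Of the genes past the threshold against the mean, 1389 (8.64% of those tested) had all 3 ifebemtinib libraries above all 9 others and 1499 (9.33%) below. Each of the other drugs also differed from its own 3 counterparts, VS-4718 most, at 6238 genes (38.8%), then defactinib at 4383 (27.3%) and GSK2256098 at 878 (5.46%). The last count moved to 510, 422 or 449 when GSK2256098 replicate 1, 2 or 3 was left out. By number of genes VS-4718 was therefore further from the rest than ifebemtinib (5845), but this order depended on the libraries. Without VS-4718 replicate 1, 2 or 3 its count was 5047, 5193 or 5655, and that of ifebemtinib 5744, 5648 or 5848.

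Against the shared DMSO libraries, the number of changed genes was alike for ifebemtinib (2136) and GSK2256098 (2001) and larger for defactinib (3594) and VS-4718 (6303). Ifebemtinib raised 1035 genes (6.44%) and lowered 1101 (6.85%), GSK2256098 raised 1022 (6.36%) and lowered 979 (6.09%), defactinib raised 1828 (11.4%) and lowered 1766 (11.0%), and VS-4718 raised 3273 (20.4%) and lowered 3030 (18.9%). The mean of the other 3 raised 2219 (13.8%) and lowered 2289 (14.2%). The mean of 9 libraries is estimated more precisely than that of 3, and the ifebemtinib count of 2136 went to 1380 without DMSO replicate 2 and to 1395 without ifebemtinib replicate 3, and that of GSK2256098 to 1298 without GSK2256098 replicate 3. These alternatives to the DMSO comparisons were chosen after seeing the data. The plot of the 24 genes with the largest differences shows both sides relative to DMSO for each library.

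**Figure D1:**
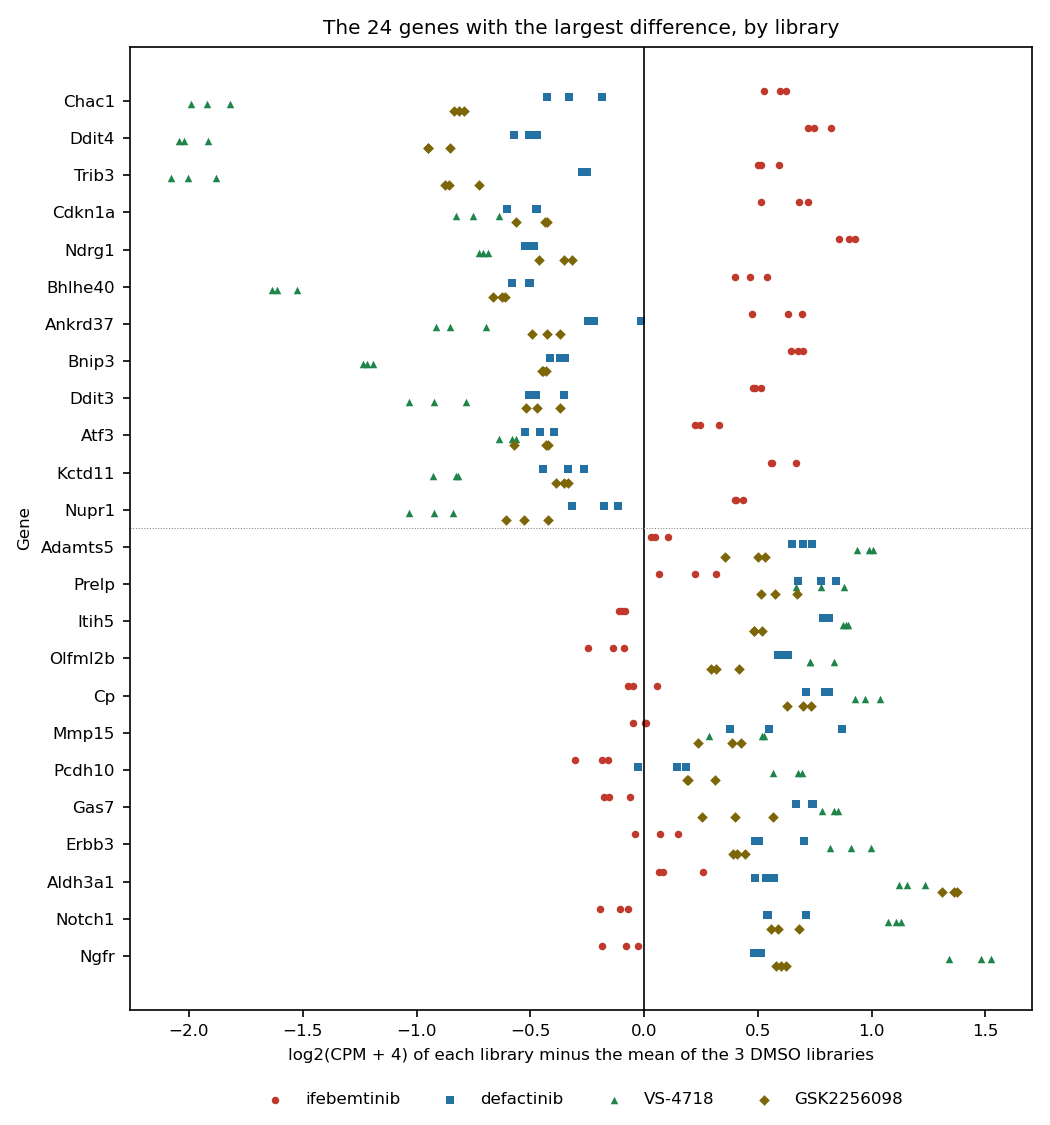
The 12 genes most above and the 12 most below the other inhibitors with ifebemtinib, 1 point per library, as log2(CPM + 4) minus the mean of the 3 DMSO libraries (x axis, log2 units). The red ifebemtinib points lie right of 0 for all 12 upper genes while the other drugs lie left of it, and for the lower 12 ifebemtinib lies left of every library of the other drugs and mostly near 0.

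Among the named genes of at least 5 CPM, Chac1 and Ddit4 differed most. Chac1, a glutathione-degrading enzyme and ATF4 target (chr2:119351229-119354381, plus strand, GRCm38), was at 38.2, 35.5 and 37.5 CPM in the ifebemtinib libraries, 23.3, 25.1 and 21.9 in DMSO, 16.4, 20.1 and 17.8 with defactinib, 3.77, 3.23 and 2.89 with VS-4718 and 11.6, 11.4 and 11.8 with GSK2256098. Every ifebemtinib library was above every DMSO library, and every library of the other drugs was below DMSO, with a log2 fold change of 2.07 ± 0.058 (SE) for ifebemtinib against the others (adjusted p = 1.87e-27, edgeR). Ddit4, also called REDD1 and an inhibitor of mTORC1 signalling (chr10:59949669-59951834, minus strand), was at 256.7, 252.4 and 270.3 CPM with ifebemtinib and 159.9, 151.0 and 143.9 with DMSO. It was at 100.5, 105.6 and 108.2 CPM with defactinib, 34.3, 37.2 and 33.7 with VS-4718 and 82.0, 76.6 and 76.4 with GSK2256098. The groups did not overlap and followed the order ifebemtinib, DMSO, defactinib, GSK2256098 and VS-4718 (ifebemtinib against the others, log2 fold change 1.98 ± 0.034, adjusted p = 1.77e-34, edgeR).

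Cdkn1a, which encodes the cell cycle inhibitor p21, followed the same pattern at a lower level. It was at 28.9, 24.5 and 28.1 CPM with ifebemtinib, 15.7, 16.6 and 15.7 with DMSO and 7.28 to 10.9 over the 9 other libraries (log2 fold change 1.53 ± 0.063, adjusted p = 7.42e-22, edgeR). Of the 18 p53 targets tested 6 were higher and 3 lower, against 18.5% and 17.9% of all genes, at a median log2 fold change of 0.08, and after Cdkn1a the next of those past the threshold was Sesn2, at 0.75, which is also an ATF4 target. Mdm2, the p53-induced ubiquitin ligase, did not pass the test, at 84.0 to 86.9 CPM with ifebemtinib and 79.0 to 84.8 with the others. Bhlhe40, a basic helix-loop-helix repressor, differed by 1.48 ± 0.036 on the log2 scale, and its level was 22.4 to 24.5 CPM with VS-4718 against 104.2 to 115.1 with ifebemtinib. Kctd11, an adaptor of a cullin ubiquitin ligase, differed by 1.27 ± 0.046. Ccng2, a cyclin repressed by PI3K signalling, was at a mean of 49.4 CPM with ifebemtinib, 29.2 with DMSO and 20.5 to 26.2 with the other 3 drugs (log2 fold change 1.1 ± 0.048).

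The genes induced by low oxygen formed the most uniform group. All 26 members of the hypoxia and glycolysis list were higher with ifebemtinib than with the mean of the other drugs, where 18.5% of all genes tested were, and 25 of the 26 were higher in all 3 pairs (6.19% of all genes) and past the threshold with all 3 libraries above the 9 others (8.64%). Their median log2 fold change was 0.58, beside 0.0071 over all genes, and it was 0.48 against defactinib, 0.75 against VS-4718 and 0.49 against GSK2256098. Against DMSO, ifebemtinib raised 25 of the 26 (6.44% of all genes), at a median of 0.33, and the mean of the other 3 lowered all 26 (14.2%), at a median of -0.33. Separately, defactinib lowered 17 (11.0% of all genes) and raised 1, VS-4718 lowered 26 (18.9%) and GSK2256098 lowered 23 (6.09%). The summed level of the list was 20720 to 21760 CPM with ifebemtinib, 18210 to 18480 with DMSO, 15590 to 16200 with defactinib, 13500 to 14070 with VS-4718 and 15940 to 16260 with GSK2256098, with no overlap between ifebemtinib, DMSO and the others.

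Ndrg1, a stress-responsive gene of Schwann cells and epithelia (chr15:66929318-66969640, minus strand), led the list. It was at 126.1, 122.5 and 128.5 CPM with ifebemtinib, 65.4, 66.5 and 65.4 with DMSO, 45.9, 44.6 and 45.2 with defactinib, 38.1, 39.4 and 38.7 with VS-4718 and 52.0, 50.7 and 46.6 with GSK2256098 (log2 fold change 1.5 ± 0.031, adjusted p = 1.03e-31, edgeR). Bnip3, a mitophagy receptor (chr7:138890836-138909519, minus strand), was at 164.0, 157.9 and 161.5 CPM with ifebemtinib, 105.0, 100.2 and 93.9 with DMSO, and 73.8 to 77.3, 40.0 to 41.3 and 71.8 to 72.8 with defactinib, VS-4718 and GSK2256098 (1.41 ± 0.029, adjusted p = 1.28e-31). For both genes ifebemtinib lay above and each other drug below the DMSO libraries. Car9, the cell surface carbonic anhydrase of hypoxic cells, was at 45.9, 41.4 and 45.0 CPM with ifebemtinib and 24.5 to 27.4 with DMSO (1.14 ± 0.047). Its defactinib libraries, at 23.5 to 28.3 CPM, overlapped DMSO, and only VS-4718 (13.4 to 14.7) and GSK2256098 (21.4 to 22.7) lay below it. Ankrd37, an ankyrin repeat protein that is a common marker of HIF activity, was at 18.5 to 22.2 CPM with ifebemtinib and 4.60 to 12.1 with the others (1.44 ± 0.079), and 57 of its exonic bases are shared with Ufsp2 on the other strand.

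Promoters of list members were searched for ACGTG, the core of the HIF binding motif, on both strands of the 250 bases before the start site (RefSeq, GRCm38.p6). It was present in 16 of the 24 members found in the promoter table (66.7%), against 18.5% of the 27025 gene symbols in the table and 16.6% of its 32851 promoters. Those shares are over all symbols and promoters, including genes not tested here. Ndrg1 was not among the members found, so its promoter was not searched. The promoters of Ankrd37, Bnip3 and Car9, the named members with a match, are printed because these genes are among the list's largest differences, with the motif, or its reverse complement CACGT, in capitals. They lie at chr8:45999851-46000100 (Ankrd37, minus strand), chr7:138909507-138909756 (Bnip3, minus strand) and chr4:43506776-43507025 (Car9, plus strand).
Ankrd37: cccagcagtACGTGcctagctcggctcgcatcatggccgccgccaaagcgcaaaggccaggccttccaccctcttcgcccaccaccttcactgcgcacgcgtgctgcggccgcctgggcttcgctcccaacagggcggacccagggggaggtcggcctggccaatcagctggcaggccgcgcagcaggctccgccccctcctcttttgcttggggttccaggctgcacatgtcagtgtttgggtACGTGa
Bnip3: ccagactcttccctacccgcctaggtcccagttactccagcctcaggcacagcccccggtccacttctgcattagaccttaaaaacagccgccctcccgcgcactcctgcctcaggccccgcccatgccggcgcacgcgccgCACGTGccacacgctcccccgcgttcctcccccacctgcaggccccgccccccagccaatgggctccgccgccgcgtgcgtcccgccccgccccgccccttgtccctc
Car9: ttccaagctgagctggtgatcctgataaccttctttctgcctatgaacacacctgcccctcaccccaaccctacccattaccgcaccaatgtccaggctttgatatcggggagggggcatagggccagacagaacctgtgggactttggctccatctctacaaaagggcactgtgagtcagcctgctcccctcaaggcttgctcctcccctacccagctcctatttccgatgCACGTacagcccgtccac
The capitals in Bnip3 are 2 overlapping matches, 1 on each strand, 107 and 108 bases before the start site. Ankrd37 holds matches 6 and 241 bases before its start, and Car9 holds 1 at 18 bases. A match describes the letters and was not tested for binding in these cells.

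Glucose uptake and each step of glycolysis on the list followed the leading genes with smaller differences. The members in this paragraph lie outside the naming rule and were chosen after their values were seen. Slc2a1, the glucose transporter GLUT1, was at 348.6, 335.4 and 344.3 CPM with ifebemtinib, 264.2 to 270.1 with DMSO, 230.7 to 255.1 with defactinib, 151.2 to 175.5 with VS-4718 and 231.5 to 238.1 with GSK2256098 (log2 fold change 0.69 ± 0.029). Slc2a3, the transporter GLUT3, differed by 1.11 ± 0.038. Pdk1, which keeps pyruvate out of the mitochondria, was at 119.7 to 125.7 CPM with ifebemtinib, 73.5 to 78.2 with DMSO and 39.2 to 73.7 with the others (1.11 ± 0.034). The enzymes were abundant, and their differences were modest but well beyond the spread of libraries, at 0.62 ± 0.025 for Tpi1, 0.61 ± 0.024 for Pgk1, 0.58 ± 0.025 for Ldha and 0.32 ± 0.023 for Pkm. Vegfa, the angiogenic growth factor, was at 151.5 to 160.3 CPM with ifebemtinib, 113.7 to 118.7 with DMSO and 61.9 to 119.5 with the others (0.83 ± 0.032). The prolyl hydroxylases that sense oxygen, themselves HIF targets, were higher too, Egln1 by 0.61 ± 0.027 and Egln3 by 0.59 ± 0.038. Pfkp, a phosphofructokinase, was the 1 member that did not separate, since its defactinib level overlapped that of ifebemtinib (0.04 on the log2 scale, adjusted p = 0.367, edgeR).

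**Figure D2:**
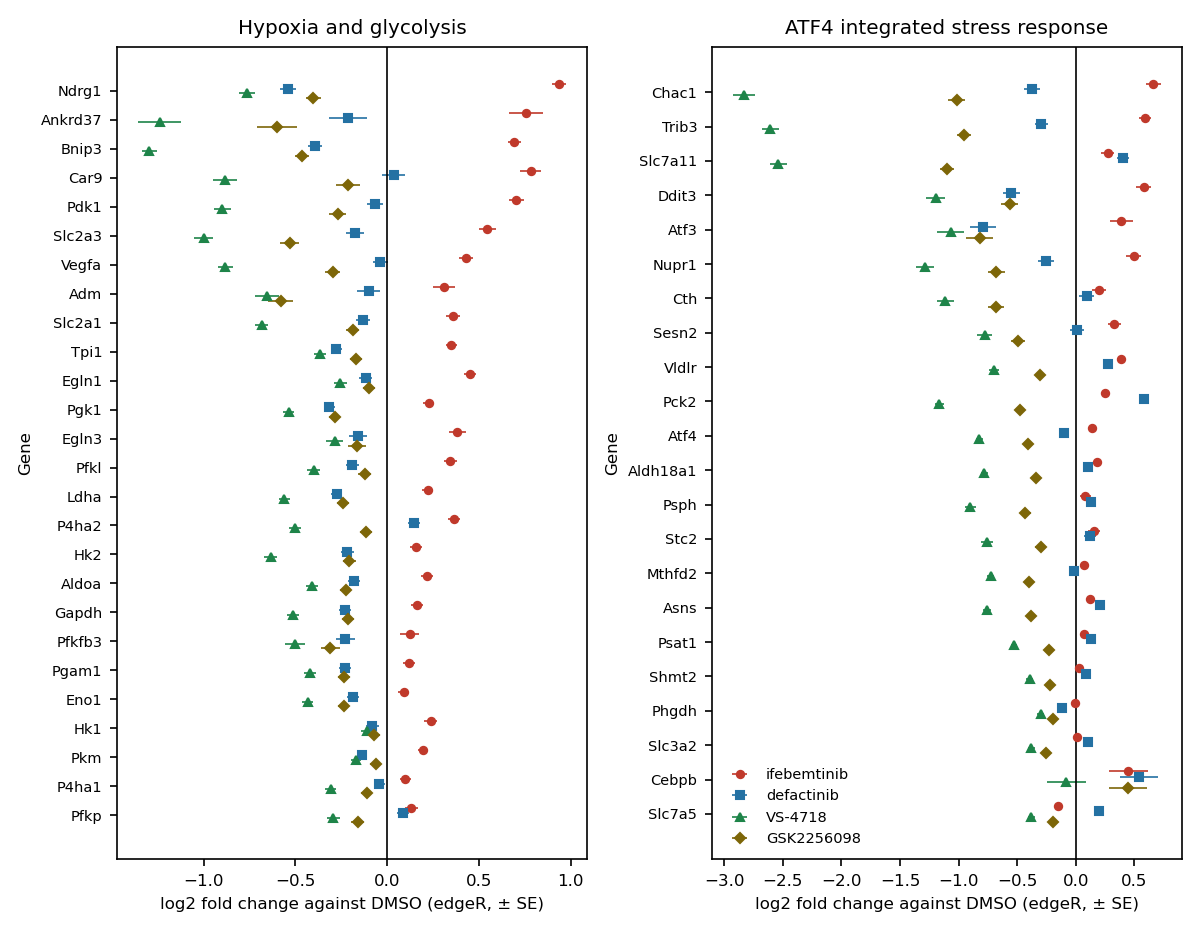
Log2 fold change of each drug against DMSO (x axis, edgeR, bars ± SE, 3 libraries a group) for the 26 hypoxia and glycolysis genes and the 22 ATF4 targets of at least 5 CPM. Ifebemtinib lies right of 0 for the hypoxia genes, at a median of 0.33, with the other drugs mostly left of it, whereas in the right panel defactinib lies beside ifebemtinib for many members. All 4 drugs share the 3 DMSO libraries.

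The ATF4 list was higher with ifebemtinib too, but not against every drug. Of 24 members, 21 were higher and 0 lower than the mean of the other 3, where 18.5% of all genes were higher, at a median log2 fold change of 0.55. In all 3 pairs 11 were higher, beside 6.19% of all genes. Against VS-4718 23 members were higher (18.8% of all genes), at a median of 0.97, and against GSK2256098 21 were (10.9%), at 0.53, whereas against defactinib 11 were higher and 6 lower (17.7% and 16.4%), at 0.08. The summed list was at 4113 to 4263 CPM with ifebemtinib and 4145 to 4227 with defactinib, which overlapped, at 3982 to 4015 with DMSO, 3249 to 3302 with GSK2256098 and 2682 to 2778 with VS-4718. Against DMSO ifebemtinib raised 14 and lowered 1 member (6.44% and 6.85% of all genes), defactinib raised 10 and lowered 7 (11.4% and 11.0%), and VS-4718 (18.9%) and GSK2256098 (6.09%) lowered 22 each. The median against the other drugs ranged from 0.29 to 0.75 when the drugs, the libraries or the method were varied.

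The 11 members higher than with defactinib were Fgf21, Atf3, Ddit3, Chac1, Trib3, Nupr1, Sesn2, Atf4, Vldlr, Phgdh and Mthfd2, of which the last 3 differed by 0.09 to 0.11 on the log2 scale. Ddit3, which encodes CHOP, was at 29.2, 29.0 and 29.9 CPM with ifebemtinib, 18.8 to 21.0 with DMSO, 12.7 to 14.6 with defactinib, 7.56 to 9.78 with VS-4718 and 12.5 to 14.3 with GSK2256098 (log2 fold change 1.35 ± 0.056, adjusted p = 1.17e-21, edgeR), and it shares 68 exonic bases with Mars on the other strand. Atf3, an inducible factor of the same family as ATF4, was at 9.23, 9.42 and 10.2 CPM with ifebemtinib, 6.92 to 7.97 with DMSO and 3.28 to 4.59 with the others (1.28 ± 0.087). Trib3, a pseudokinase that restrains ATF4, was at 50.5, 50.1 and 53.7 CPM with ifebemtinib, 32.0 to 37.3 with DMSO, 27.7 to 28.1 with defactinib, 5.03 to 6.38 with VS-4718 and 16.8 to 19.1 with GSK2256098 (1.88 ± 0.046). In these 3 genes ifebemtinib was above and every other drug below DMSO, as in Chac1. Nupr1, a small stress-induced chromatin protein, differed by 1.23 ± 0.057 and Sesn2, a sensor of leucine, by 0.75 ± 0.047.

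The 6 members lower than with defactinib were the amino acid transporter genes Slc7a3, Slc7a5, Slc7a11 and Slc3a2, and Pck2 and Asns. Their log2 fold changes against defactinib were -0.69 for Slc7a3, -0.35 for Slc7a5, -0.33 for Pck2 and -0.09 for both Asns and Slc3a2. Slc7a11, the cystine importer, was at 34.9, 36.9 and 37.6 CPM with ifebemtinib, 29.7 to 31.3 with DMSO and 39.7 to 40.4 with defactinib, but at 4.95 to 5.39 with VS-4718 and 12.8 to 14.9 with GSK2256098. Its difference from the mean of the 3, at 1.35 ± 0.047 on the log2 scale, came with a positive value against those 2 drugs only, and against defactinib the log2 fold change was -0.13 (95% interval -0.24 to -0.03, adjusted p = 0.0458, edgeR). Pck2, the mitochondrial enzyme that makes phosphoenolpyruvate, and Asns, asparagine synthetase, lie outside the naming rule and were chosen after their values were seen, as were the other members in this paragraph apart from Slc7a11 and Fgf21. Pck2 was at 112.6 to 119.5 CPM with ifebemtinib and 144.4 to 148.1 with defactinib, and Asns at 191.9 to 199.7 and 203.2 to 211.6. The remaining 7 members, Psph, Psat1, Shmt2, Cth, Aldh18a1, Stc2 and Cebpb, did not pass the test against defactinib, at log2 fold changes of -0.09 to 0.11. Fgf21, a hormone induced by ATF4, was below 1 CPM in every library and at 0 counts in 2 of the VS-4718 libraries, so that no fold is given.

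The letters TGATGNAA, the composite site that ATF4 shares with C/EBP factors, were searched in the same windows on both strands. They were in 8 of the 21 ATF4 list members found (38.1%), against 3.9% of all gene symbols, 3.5% of all promoters and 0 of the 24 hypoxia members. ACGTG was in 6 of the 21 (28.6%). Printed are Chac1 (chr2:119350992-119351241, plus strand), Slc7a11 (chr3:50443614-50443863, minus strand) and Atf3 (chr1:191183334-191183583, minus strand). Among the called members of at least 5 CPM with a match, these had the largest differences. The matches, or their reverse complement, are in capitals.
Chac1: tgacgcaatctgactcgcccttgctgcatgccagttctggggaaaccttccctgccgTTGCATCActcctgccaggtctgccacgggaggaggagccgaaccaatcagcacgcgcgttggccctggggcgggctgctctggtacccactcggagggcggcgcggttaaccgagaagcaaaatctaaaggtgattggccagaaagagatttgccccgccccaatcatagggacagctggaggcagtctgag
Slc7a11: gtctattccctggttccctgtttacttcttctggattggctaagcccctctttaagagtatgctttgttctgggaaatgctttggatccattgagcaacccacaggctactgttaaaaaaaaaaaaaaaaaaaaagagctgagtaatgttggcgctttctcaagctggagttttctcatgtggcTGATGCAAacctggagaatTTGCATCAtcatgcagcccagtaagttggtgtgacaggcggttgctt
Atf3: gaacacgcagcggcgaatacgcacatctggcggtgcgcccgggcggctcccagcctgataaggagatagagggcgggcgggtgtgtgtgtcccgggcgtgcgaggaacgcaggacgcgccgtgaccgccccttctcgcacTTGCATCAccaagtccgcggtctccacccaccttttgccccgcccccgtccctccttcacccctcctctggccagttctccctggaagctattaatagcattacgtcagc
Slc7a11 holds 2 matches, 47 and 66 bases before its start site, Atf3 1 at 110 bases and Chac1 1 at 193 bases.

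The list of Schwann cell identity and myelin genes was lower with ifebemtinib than with the other inhibitors, and close to DMSO. Of 18 members tested, 0 were higher and 13 lower, against 17.9% of all genes, at a median log2 fold change of -0.31, and 8 were lower in all 3 pairs, against 7.49%. The medians were -0.31 against defactinib, -0.59 against VS-4718 and -0.25 against GSK2256098. Ifebemtinib raised 2 and lowered 2 members against DMSO (6.44% and 6.85% of all genes), whereas the mean of the other 3 raised 12 and lowered 0 (13.8% and 14.2%). The summed list was at 299.5 to 306.6 CPM with ifebemtinib and 305.4 to 305.9 with DMSO, but 355.5 to 386.0 with defactinib, 408.6 to 441.7 with VS-4718 and 342.7 to 362.2 with GSK2256098.

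Ngfr, the p75 neurotrophin receptor of immature and repair Schwann cells (chr11:95568818-95587735, minus strand), showed the largest difference of the list. It was at 9.65, 8.66 and 10.2 CPM with ifebemtinib, 9.63, 10.5 and 11.1 with DMSO, 16.1, 16.4 and 16.6 with defactinib, 37.5, 36.3 and 32.4 with VS-4718 and 17.5, 17.9 and 18.2 with GSK2256098 (log2 fold change -1.20 ± 0.065, adjusted p = 6.23e-18, edgeR). Ifebemtinib overlapped DMSO, and the other drugs lay above both. Sox10, the lineage factor (chr15:79154908-79165240, minus strand), was at 22.7, 21.6 and 23.6 CPM with ifebemtinib, 19.7, 20.3 and 20.3 with DMSO, 27.2, 30.4 and 30.9 with defactinib, 48.7, 50.1 and 42.2 with VS-4718 and 25.4, 28.7 and 29.0 with GSK2256098 (-0.58 ± 0.059). Erbb3, the neuregulin receptor, was at 3.27 to 4.29 CPM with ifebemtinib, 3.05 to 3.89 with DMSO and 5.81 to 10.9 with the others (-0.98 ± 0.098). Pmp22, a myelin protein, differed by -0.64 ± 0.070 and Cdh19, a cadherin of Schwann cell precursors, by -0.88 ± 0.144. Mal, at 0.369 to 0.710 CPM with ifebemtinib, lost its call without ifebemtinib replicate 1 (adjusted p = 0.108, edgeR).

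Notch1, the receptor that keeps Schwann cells immature (chr2:26457903-26516663, minus strand), belongs to no list and was among the 12 genes most below the others. It was at 12.4, 12.8 and 11.5 CPM with ifebemtinib, 14.0, 13.1 and 14.0 with DMSO, 21.7, 21.8 and 25.0 with defactinib, 33.2, 34.1 and 34.6 with VS-4718 and 22.0, 24.3 and 22.6 with GSK2256098 (log2 fold change -1.09 ± 0.063, adjusted p = 2.57e-17, edgeR). Ifebemtinib lay just below DMSO and all 9 others above it.

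The genes of repair Schwann cells, the injury-induced state driven by Jun, did not move as 1 group. Of 16 tested, 4 were higher and 7 lower, so that 68.8% passed the threshold, against 36.4% of all genes. Jun itself was higher, at a mean of 112.2 CPM against 73.6 to 99.0 for the other drugs (log2 fold change 0.42 ± 0.033), as was Atf3, whereas the neurotrophic factor Gdnf was lower (-0.27 ± 0.033). Olig1, a glial transcription factor, was at most 1.18 CPM in any of these libraries (-1.37 ± 0.336).

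Most matrix genes were lower with ifebemtinib than with each of the other drugs. Of 25 collagens, laminins and other matrix genes, 20 were lower and 0 higher, at a median log2 fold change of -0.31, where 17.9% of all genes were lower, and 19 were lower in all 3 pairs, where 7.49% of all genes were. Against VS-4718 the collagen gene Col1a2 and Loxl2, a collagen crosslinking enzyme, were higher. The sum was 8457 to 8671 CPM with ifebemtinib, 9078 to 9183 with DMSO, 10630 to 11120 with defactinib, 11010 to 11290 with VS-4718 and 9998 to 10330 with GSK2256098, so that ifebemtinib lay below DMSO and the others above it. Singly, ifebemtinib lowered 7 members against DMSO (6.85% of all genes) and the mean of the other 3 raised 19 (13.8%).

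Thbs1, thrombospondin 1 (chr2:118111876-118127133, plus strand), was at 523.6, 516.8 and 521.1 CPM with ifebemtinib, 623.0, 641.3 and 628.1 with DMSO, 855.9, 829.6 and 876.9 with defactinib, 1058, 1027 and 1044 with VS-4718 and 757.3, 770.2 and 779.3 with GSK2256098 (log2 fold change -0.76 ± 0.032, adjusted p = 1.21e-21, edgeR). Against DMSO it was lowered by ifebemtinib and raised by each other drug. Col6a1, a microfibrillar collagen, was at 10.3, 12.7 and 12.1 CPM with ifebemtinib, 11.8 to 13.4 with DMSO and 15.2 to 23.2 with the others (-0.76 ± 0.063). Col12a1, a fibril-associated collagen, differed by -0.67 ± 0.063 and Lama4, a laminin chain of nerve basal lamina, by -0.65 ± 0.083. Fn1, fibronectin and the ligand of integrin α5β1, lies outside the naming rule, and was at 1035 to 1092 CPM with ifebemtinib, 1085 to 1104 with DMSO and 1370 to 1939 with the others (-0.56 ± 0.032). Col1a2, an abundant collagen, did not differ from the mean of the 3 (-0.03, adjusted p = 0.349, edgeR), being higher than with VS-4718 and lower than with the other 2 drugs.

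Among matrix proteases and their inhibitors 11 of 21 were lower, against 17.9% of all genes. The metalloproteases Mmp15 (log2 fold change -0.92 ± 0.148) and Adamts5, an aggrecanase (-0.77 ± 0.059), were at or near their DMSO levels with ifebemtinib and above them in all 9 other libraries. The secreted proteins Itih5 (-0.84 ± 0.028), Olfml2b (-0.87 ± 0.062), Prelp (-0.79 ± 0.092) and ceruloplasmin, Cp (-0.87 ± 0.035), were among the 12 genes most below the others, together with Gas7, a cytoskeletal adaptor (-0.95 ± 0.069), and the protocadherin Pcdh10 (-0.94 ± 0.104). Cp shares 108 exonic bases with Hps3.

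**Figure D3:**
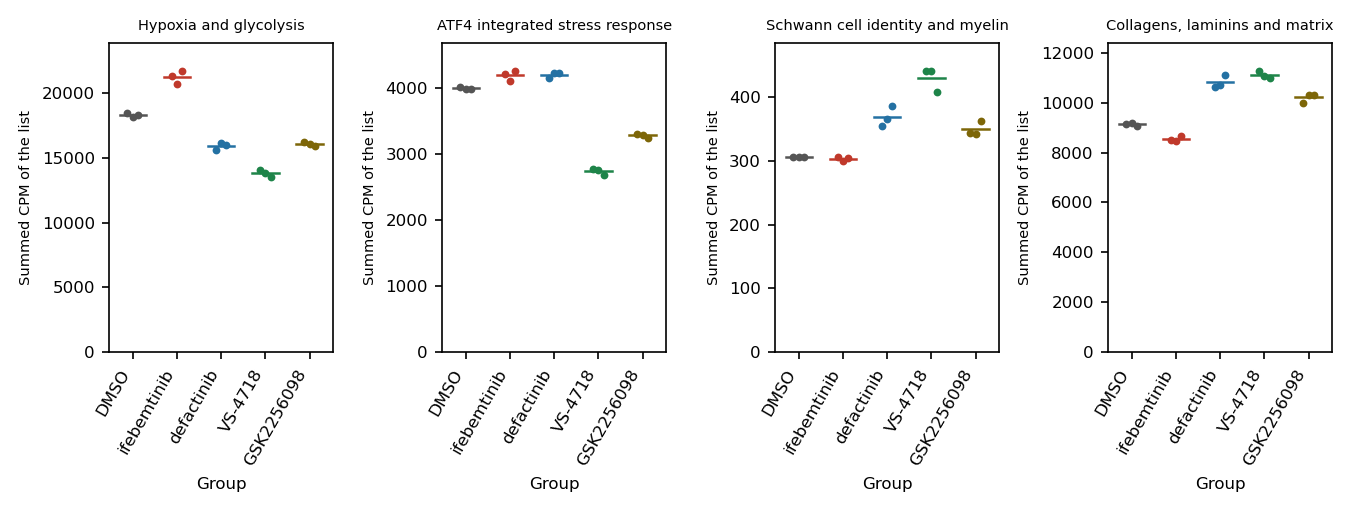
Summed CPM (y axis, linear from 0) of 4 gene lists in each DMSO and kinase inhibitor library, with a line at the mean of each group of 3. With ifebemtinib the hypoxia sum of 20720 to 21760 lies above DMSO and the other drugs, the ATF4 sum overlaps that of defactinib, and the Schwann and matrix sums lie below all 9 libraries of the other drugs.

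Receptor tyrosine kinases were lower as well, with 14 of 18 tested lower and 1 higher, against 17.9% and 18.5% of all genes, at a median log2 fold change of -0.23, and 10 lower in all 3 pairs, against 7.49%. Besides Erbb3, the platelet-derived growth factor receptor Pdgfrb was at 22.4 to 23.4 CPM with ifebemtinib, 21.4 to 25.7 with DMSO and 27.4 to 38.5 with the others (-0.52 ± 0.053). The insulin receptor Insr (-0.41 ± 0.032) and the collagen receptor Ddr1 (-0.37 ± 0.040) were below all 9 other libraries in each ifebemtinib library, and Mertk, a receptor for apoptotic cells, was the 1 higher member (0.30). Met, the receptor for hepatocyte growth factor, was at 199.5, 207.0 and 202.0 CPM with ifebemtinib, 224.0 to 231.5 with defactinib, 193.6 to 203.1 with VS-4718 and 213.2 to 225.4 with GSK2256098. Its difference from the mean was small (-0.09 ± 0.027, adjusted p = 0.00825, edgeR), was lost without ifebemtinib replicate 1 (adjusted p = 0.0779), and against VS-4718 was 0.03 (95% interval -0.04 to 0.09).

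The targets of the inhibitors and the deleted gene differed little. Ptk2 was at 90.1, 92.9 and 89.2 CPM with ifebemtinib and 83.5 to 88.8 with the other drugs, beside 92.9 to 97.7 with DMSO. The difference from the mean of the 3 was 0.08 ± 0.029 on the log2 scale (95% interval 0.02 to 0.14, adjusted p = 0.0321, edgeR), and it lost its call under 6 of the alternatives. Ptk2b, which encodes the FAK relative PYK2, had 0 to 3 counts in the 12 libraries and was not tested. Nf2 was read at 175.5 to 193.0 CPM in the 12 libraries, with a log2 fold change of -0.03 (95% interval -0.09 to 0.02, adjusted p = 0.359). These counts cover the whole gene, so they do not check a Cre deletion that leaves the rest of the transcript.

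In the list of FAK, PYK2 and focal adhesion genes 2 of 29 tested were higher and 14 lower, against 18.5% and 17.9% of all genes, and 6 were lower in all 3 pairs, against 7.49%. Tns1, tensin 1 (log2 fold change -0.52 ± 0.040), the fibronectin receptor chain Itga5 (-0.38 ± 0.029), vinculin, Vcl (-0.35 ± 0.030), and the integrin chain Itgav (-0.27 ± 0.030) were the largest. Vcl shares 2090 exonic bases with Ap3m1 on the other strand, and the 2 cannot be told apart there unless counting used strand. Without VS-4718 on the other side the lower count was 8. YAP and TEAD targets were split, with 6 higher and 12 lower of 23 (78.3% past the threshold, against 36.4% of all genes). Crim1, a regulator of BMP ligands, was lower (-0.45 ± 0.026, with 123 exonic bases shared with Fez2) and Ankrd1, a muscle ankyrin repeat protein, higher (0.35 ± 0.029). The SRF and actin list held 4 higher and 6 lower genes of 20, against 18.5% and 17.9% of all genes, and these became 2 and 11 without defactinib and 5 and 3 without VS-4718. Filamin A, Flna, an actin crosslinker, was lower than with each drug (-0.40 ± 0.024), and Myl9 lost its call without ifebemtinib replicate 1.

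Genes that report ERK signalling were higher with ifebemtinib in 16 of 22 cases and lower in 3, against 18.5% and 17.9% of all genes, at a median log2 fold change of 0.21. Much of this was against VS-4718, where 17 were higher at a median of 0.40 (18.8% of all genes), beside 8 at 0.06 against defactinib (17.7%) and 11 at 0.15 against GSK2256098 (10.9%), and without VS-4718 the count was 10. Etv5, an ETS factor, was at 64.5 to 68.9 CPM with ifebemtinib, 58.8 to 62.3 with DMSO, 27.1 to 28.0 with VS-4718 and 55.0 to 63.9 with the other 2 drugs (0.54 ± 0.037). Dusp4, an ERK phosphatase (0.59 ± 0.043), and Ier3, an early response gene (0.90 ± 0.034), were higher in all 3 pairs. Ier3 was at 139.7 to 151.8 CPM with ifebemtinib, 104.5 to 114.5 with DMSO and 71.4 to 91.3 with the others. Fos was low throughout, at 1.06 to 1.53 CPM with ifebemtinib and 0.349 to 0.915 with the others (1.08 ± 0.233).

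**Figure D4:**
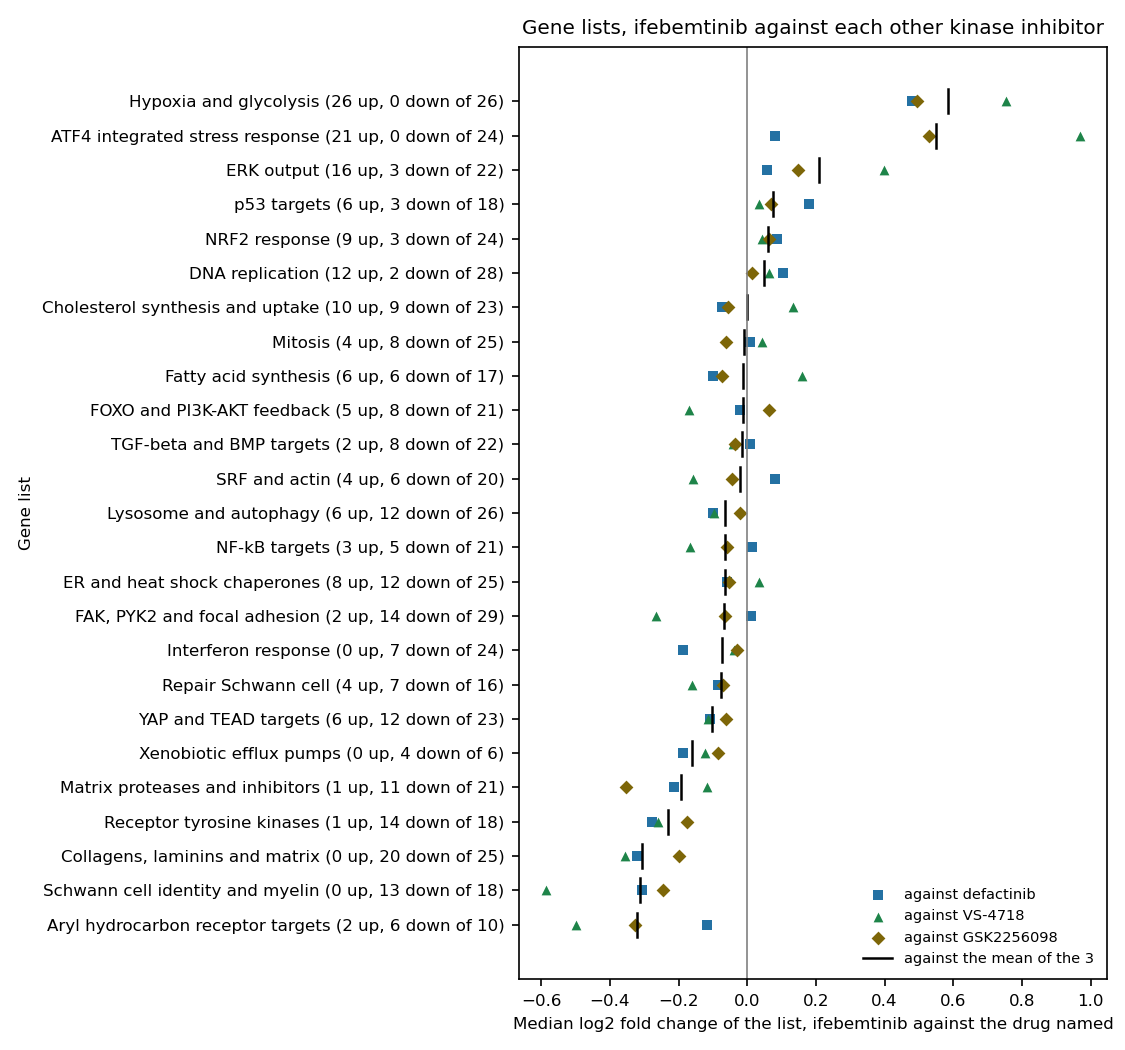
Median log2 fold change (x axis) of each of the 25 gene lists with ifebemtinib against defactinib, VS-4718, GSK2256098 (points) and their mean (black line), with the number of members past the threshold in each direction beside its name. The hypoxia list lies right of 0 in every pair, at 0.48 to 0.75, the ATF4 list spans 0.08 to 0.97, and the Schwann, matrix and receptor lists lie left of 0 in every pair.

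Targets of the aryl hydrocarbon receptor, which induces enzymes of xenobiotic metabolism, numbered 2 higher and 6 lower of 10 tested, against 18.5% and 17.9% of all genes. In the pairs 3 were lower against defactinib (16.4% of all genes), at a median log2 fold change of -0.12, 7 against VS-4718 (20.4%), at -0.50, and 5 against GSK2256098 (12.2%), at -0.33. Aldh3a1, an aldehyde dehydrogenase, was at 24.5, 20.9 and 21.3 CPM with ifebemtinib, 19.4 to 20.2 with DMSO, 29.5 to 31.4 with defactinib, 47.8 to 52.1 with VS-4718 and 55.2 to 57.8 with GSK2256098 (log2 fold change -0.99 ± 0.048, adjusted p = 1.26e-19, edgeR). The cytochromes Cyp1b1 (-1.79 ± 0.279) and Cyp1a1 (-1.02 ± 0.244) were under 2 CPM in all libraries, and Lpcat2, a lipid-remodelling enzyme, differed by -0.37 ± 0.040. Genes of NRF2, the antioxidant factor, were higher in 9 and lower in 3 of 24 cases, against the same shares of all genes, among them heme oxygenase, Hmox1 (0.48 ± 0.046), and sulfiredoxin, Srxn1 (0.30 ± 0.040). Without defactinib on the other side these counts were 8 and 5. Of 6 efflux pumps tested 0 were higher and 4 lower (17.9% of all genes), including Abcb1b (-0.25 ± 0.031), Abcc5 (-0.24 ± 0.034) and Abcc4 (-0.21 ± 0.034), while Abcg2 lost its call under 9 alternatives.

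Lists of growth and lipid metabolism showed small or mixed differences, to be read against the 18.5% of all genes that were higher and the 17.9% that were lower. DNA replication genes were higher in 12 and lower in 2 of 28 cases, at a median log2 fold change of 0.05, with E2f1, the S-phase factor, at 0.26 ± 0.036 and Ccne1, the cyclin of S-phase entry, at -0.32 ± 0.039. In all 3 pairs 1 member was higher and 2 were lower (6.19% and 7.49% of all genes). Mitosis genes numbered 4 higher and 8 lower of 25, none in all 3 pairs, with the proliferation marker Mki67 at -0.23 ± 0.030. Those 8 became 3 without ifebemtinib replicate 3, and the 4 became 7 without VS-4718 replicate 3. Without defactinib on the other side they were 4 and 5, and without GSK2256098 7 and 5. Over all 21 settings 1 to 7 mitosis genes were higher and 3 to 9 lower. Cholesterol genes were divided, 10 higher and 9 lower of 23, with the mevalonate enzymes Mvd (0.49 ± 0.056) and Pmvk (0.46 ± 0.050) higher and the sterol isomerase Ebp lower (-0.36 ± 0.034). Of 17 fatty acid synthesis genes 6 were higher and 6 lower, and 3 and 9 without VS-4718. The desaturase Scd2 was at 828.3 to 853.1 CPM with VS-4718, 1448 to 1466 with ifebemtinib and 1409 to 1524 with the other 2 drugs.

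Of the 24 interferon response genes 0 were higher and 7 lower, against 18.5% and 17.9% of all genes. In either direction 29.2% of the list passed the threshold, beside 36.4% of all genes. Among the 7 were Irf9, a subunit of the interferon-activated factor (log2 fold change -0.37 ± 0.074, with 123 exonic bases shared with Rnf31), and Gbp2 (-0.81 ± 0.196). The lower count was 4 with DESeq2, with no filter on low counts, or without defactinib, and Ifit3 and Gbp3 were near the threshold. NF-kB targets were higher in 3 and lower in 5 of 21 cases, and at 38.1% past the threshold were near the share of all genes, with the monocyte attractant Ccl2 at a mean of 23.9 CPM with ifebemtinib and 30.2 to 38.9 with the others (-0.54 ± 0.049), and the macrophage growth factor Csf1 at -0.32 ± 0.024. Those counts became 1 and 3 without ifebemtinib replicate 3, and 1 and 9 without defactinib. In the TGF-beta and BMP list 2 were higher and 8 lower of 22 (45.5% past the threshold, against 36.4% of all genes). Pmepa1, a feedback inhibitor (-0.60 ± 0.066), and the receptor Tgfbr1 (-0.51 ± 0.078) were lower.

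Genes of lysosomes and autophagy were higher in 6 and lower in 12 of 26 cases, against 18.5% and 17.9% of all genes, and these became 3 and 10 without defactinib. The lysosomal protease Ctsd (log2 fold change -0.33 ± 0.028) and membrane protein Lamp1 (-0.27 ± 0.030) were lower, and the autophagy receptor Sqstm1, which shares 580 exonic bases with Mrnip, was higher (0.38 ± 0.028). Chaperones of the endoplasmic reticulum and of heat shock numbered 8 higher and 12 lower of 25 (80.0% past the threshold, against 36.4% of all genes). Herpud1, an ER degradation factor that ATF4 also induces, was the largest, at a mean of 45.2 CPM with ifebemtinib, 37.7 with DMSO, 37.3 with defactinib, 14.9 with VS-4718 and 25.1 with GSK2256098 (0.91 ± 0.040). Xbp1, the factor of the unfolded protein response, was at 0.38 ± 0.036. The heat shock genes Hspa1b and Hspa1a were lower, and the median log2 fold change of the list was -0.06. With the other methods and with each library left out, Hspa1b stayed past the threshold, at -0.60 to -0.41. Hspa1a lost its call without ifebemtinib replicate 1 (adjusted p = 0.133, edgeR). Of the 21 FOXO and PI3K-AKT feedback genes 5 were higher and 8 lower (61.9%), with Ddit4 and Ccng2 above and Erbb3, Insr and Klf2 below the other drugs, and Klf2 lost its call without ifebemtinib replicate 2.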

How the data were processed

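RNA-seq libraries of MS03 cells were made from poly(A)-selected RNA with the NEBNext Ultra II kit, per the labels. The authors deposited whole-number read counts per gene (49315 genes), with no normalization. The submitters' processing notes name Trimmomatic 0.36, STAR 2.5.2b, featureCounts, Subread 1.5.2 and GRCm38. The annotation and strand setting were not given in the sources used here, so reads of overlapping genes (20 of 111 named genes share exonic bases) could fall to either.

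Counts were filtered with filterByExpr (16070 genes) and scaled by TMM, and all 24 libraries in 8 groups were fitted with edgeR 4.0.16 (quasi-likelihood, R 4.3.3, 16 residual and 21.6 prior degrees of freedom). P-values were adjusted by Benjamini-Hochberg over all genes, and jointly over the 3 pairs, at 0.05. Fold changes are log2 ratios ± SE. Exact permutation tests of 3 against 9 libraries (SciPy 1.17.1, Python 3.11.15) on log2(CPM + 4), the scale of the study, are not used, since the 9 span 3 drugs and most of the 11 genes were named for their separation. Alternatives were limma 3.58.1 (trend), DESeq2 1.42.0, library totals, no filter, a replicate block, only 12 libraries, each library left out, each drug left out of the mean, and a 2-fold minimum, and those for the DMSO comparisons and for each other drug against its 3 counterparts were chosen after seeing the data. The procedure was tested on simulated data.

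Named genes were the 12 largest differences in each direction among genes past the threshold with at least 5 CPM on average and all 3 ifebemtinib libraries beyond all 9 others, predicted and clone symbols left out, up to 4 called members of each of 25 lists with the largest change, and Ptk2, Ptk2b, Nf2, Met and Sox10. The comparison and the lists were chosen with earlier results of these data known. Of 566 list symbols, 1 (Areg) was not analysed here. Gene positions are from GENCODE M21 and promoters from RefSeq. Precision is limited by 3 libraries a group and by counts, and low genes are correspondingly uncertain. Values of a few list and marker genes are not reported here.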

Additional observations from a re-analysis of the deposited data

How the results depend on the processing

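For the 111 named genes, 6 other methods or sample choices and 12 left-out libraries (17 of these 18 for Ifit3) gave 1997 results, of which 1955 kept their direction and side of the threshold, 42 in 12 genes (Ptk2, Met, Myl9, Klf2, Mal, Cenpe, Ccnb2, Ifit3, Gbp3, Ptgs2, Hspa1a and Abcg2) lost the threshold and 0 reversed. Leaving out a drug and the 2-fold minimum were not run for single genes. The hypoxia list stayed at 26 higher and 0 lower in all 21 settings. DESeq2 called 5340 genes, limma 5684 and the fit without a filter 5440, against 5845. With library totals alone 2596 genes were higher and 3173 lower (45.0% higher, against 50.8%), and the cause was not tested. Leaving 1 drug out of the mean gave 5545 genes without defactinib, 5161 without VS-4718 and 6187 without GSK2256098. Asking for at least 2-fold left 149 genes against the mean, 168 against defactinib, 372 against VS-4718 and 137 against GSK2256098. Leaving out 1 library gave 4788 to 5848 genes against the mean, 4598 to 5071, 5479 to 5916 and 3059 to 3349 in the pairs, 1380 to 1824 for ifebemtinib and 1298 to 1622 for GSK2256098 against DMSO (1298 without GSK2256098 replicate 3), and 422 to 971 for GSK2256098 against its 3 counterparts. Genes under about 1 CPM rest on few counts.

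With the replicate number as a block the paired fit called 5764 genes, and 5419, 6241 and 3660 in the pairs. Deviations of same-numbered libraries correlated at -0.206 to 0.152 (median -0.0275, 18 library pairs) and differently numbered ones at -0.221 to 0.271 (median 0.0231, 36). These ranges overlapped, and with 3 libraries a group they do not settle whether the numbers paired the samples.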
